A study of Mus musculus with 8 samples.

Results

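Glycolysis splits glucose into pyruvate in the cytosol and yields ATP without oxygen. Glucose enters the cell through carriers of the SLC2A (GLUT) family, hexokinases trap it as glucose phosphate, and phosphofructokinase commits it to breakdown. Aldolase then cleaves the sugar, the lower enzymes pass the fragments to pyruvate, and lactate dehydrogenase turns pyruvate into lactate. Endothelial cells in general draw much of their ATP from this route although they lie beside the blood. Glucose phosphate can also leave for the pentose phosphate pathway, whose oxidative steps make NADPH, the electron donor of glutathione and thioredoxin defence, and whose non-oxidative steps hand sugars back to glycolysis.

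The genes described are 10 genes of glucose entry and glycolysis, *Slc2a1*, *Hk1*, *Hk2*, *Pfkl*, *Pfkp*, *Pfkfb3*, *Aldoa*, *Pgk1*, *Pkm* and *Ldha*, taken by symbol from the 23930 RefSeq targets of the assay. A target was matched for 9 of them, and *Pgk1*, phosphoglycerate kinase, was not analysed here. All 9 passed the filter on low counts. The cells were liver sinusoidal endothelial cells (LSECs), the fenestrated lining of the liver's capillaries, from wild-type female Balb/c mice. They had been sorted on dim CD45, high STAB2 and high CD146. Of the libraries, 4 came from mice injected intravenously 5 h earlier with iron citrate (150 µg), and 4 from mice given 0.05 M citrate buffer by the same route 5 h earlier. The question put to the genes was whether *Aldoa* moved alone among the glycolytic enzymes after iron.

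Each gene was read through 1 short amplicon, so values are compared between libraries for a gene and not between genes. Values are CPM, counts scaled to the normalized total of a library. Counts on targets came to 9010874 to 11061968 in iron citrate libraries and 7969520 to 11314659 in citrate buffer libraries. Citrate buffer replicate 1 stood apart, with a median correlation of 0.84 with its own group, against 0.96 to 0.98 for the other 7 libraries. Gene families that liver is not known to express, such as olfactory receptors, took 0.29% to 0.61% of counts in iron citrate libraries and 0.42% to 2.42% in citrate buffer libraries, with the most in citrate buffer replicates 1 and 2. All 12 sinusoidal endothelial markers were detected and none was called, beside 0.555% of all tested targets, but they did not all hold steady. The lectin gene *Clec4g* had 10020 ± 966 CPM after iron citrate and 9476 ± 1996 CPM after citrate buffer (SD, n = 4 each). Of the 12, 7 had a log2 fold change above 0 and 5 below, and 2 had no overlap, against 8.64% of all tested targets. *Mcam*, which encodes the sort marker CD146, stood at 179 ± 11.3 CPM after iron citrate and 253 ± 34.8 CPM after citrate buffer, with no overlap (log2 fold change -0.50, SE 0.14, edgeR adjusted p = 0.239). *Cdh5* was apart on the other side, at 1330 ± 72.5 CPM after iron citrate and 1108 ± 144 CPM after citrate buffer (log2 fold change 0.26, SE 0.14, edgeR adjusted p = 0.345). *Oit3*, *Kdr* and *Stab1*, further markers of the list, had 730, 749.8 and 812.5 CPM in citrate buffer replicate 1, against 1574 to 3314 CPM in the other 3 citrate buffer libraries. Not all markers were that low there. *Stab2* had 901 CPM in that library, against 1017 to 1222 CPM in the others of its group, and *Fcgr2b* was higher there, at 58.85 against 46.0 to 49.35 CPM. *Lyve1* had the largest log2 fold change of the list, 0.61 (SE 0.27, edgeR adjusted p = 0.333), with overlap. *Clec4g*, *Mcam*, *Cdh5*, *Oit3*, *Kdr*, *Stab1*, *Stab2*, *Fcgr2b* and *Lyve1* are named here for their role or after their values were seen. In bulk libraries, fewer cells of a type and less RNA per cell cannot be told apart.

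Of the 9 measured genes, *Aldoa* rose and the other 8 did not pass. The threshold was 0.05 on p-values from edgeR's quasi-likelihood test, adjusted over all 14601 tested targets, of which 0.555% passed in either direction and 0.527% as higher after iron citrate. The groups did not overlap for *Aldoa* and overlapped for the other 8, against 8.64% of all tested targets without overlap, 6.36% with iron citrate on the higher side. *Aldoa* was known to be called when the genes were chosen, so its call is a description and no separate evidence. The log2 fold change was above 0 for 8 of the 9 genes and below 0 for *Pfkl*, beside 7158 of all 14601 tested targets above 0. *Hk2* turned negative in 5 alternative fits and *Hk1* in 2, given further on. The median over the 9 was 0.23, beside -0.01 over all tested targets.

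**Figure D1:**
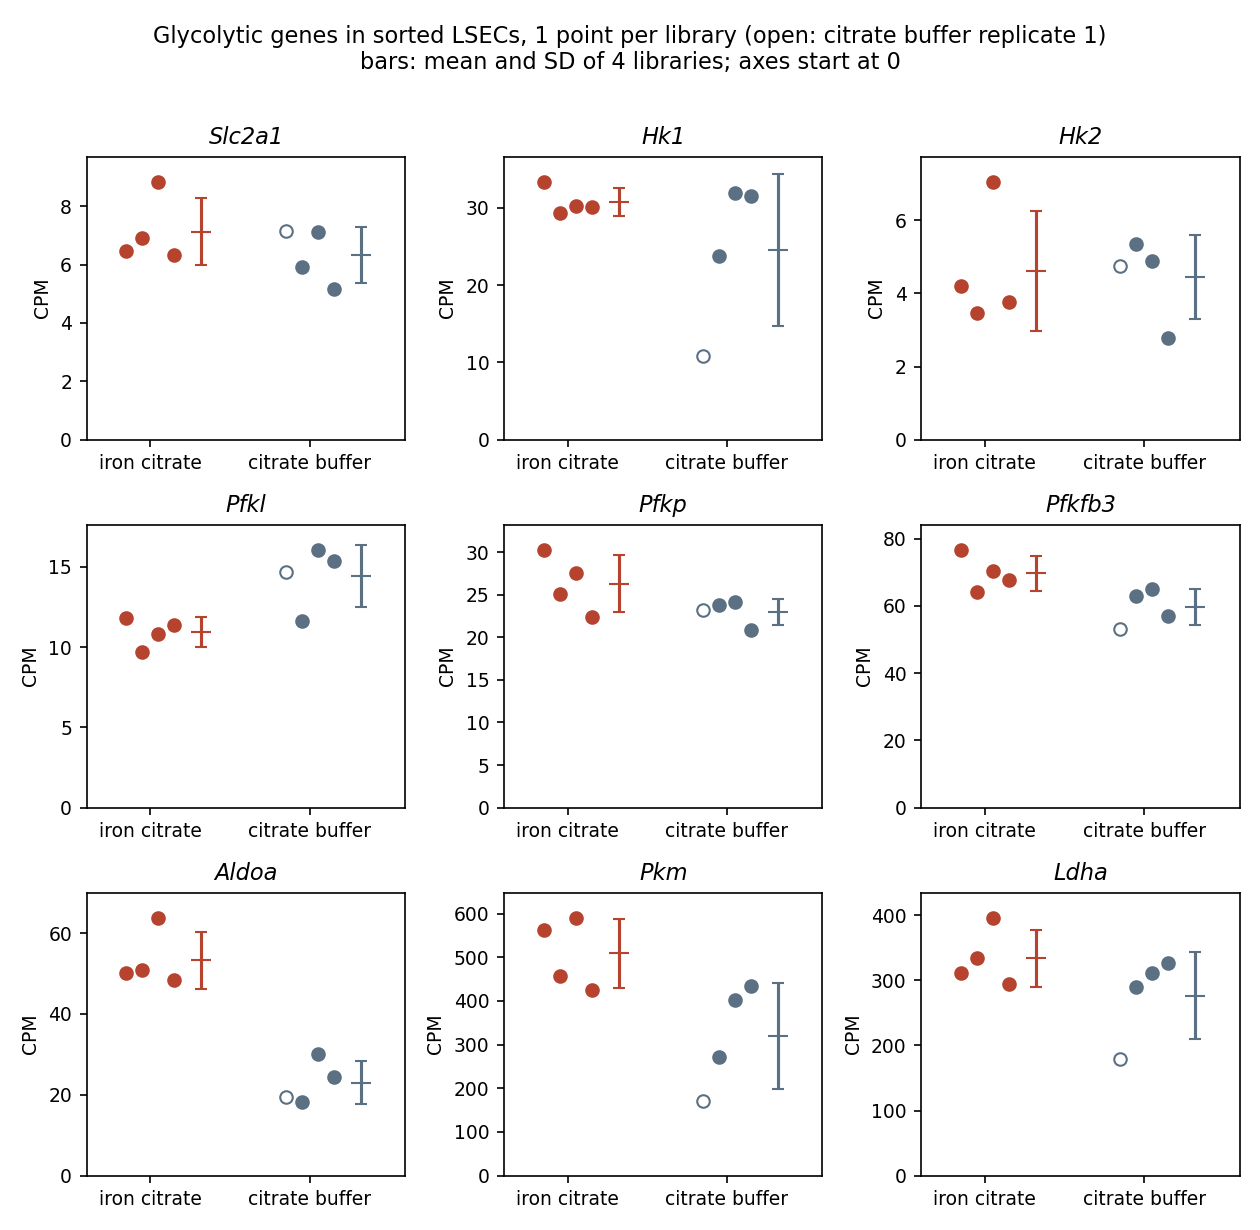
CPM of the 9 measured glycolytic genes in each library, iron citrate on the left and citrate buffer on the right of each panel, with the mean and SD of 4 libraries as bars; every axis starts at 0. The 4 iron citrate points for Aldoa, 48.3 to 63.7 CPM, lie above all citrate buffer points, 18.2 to 30.0 CPM, while the groups overlap in the other panels; citrate buffer replicate 1 (open point) is the lowest for Hk1, Pkm and Ldha.

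*Aldoa* encodes aldolase A, the form of the enzyme best known from muscle and most dividing or non-hepatocyte cells. It stood at 50.05, 50.9, 63.7 and 48.3 CPM in iron citrate replicates 1 to 4, against 19.4, 18.2, 30.0 and 24.4 CPM in citrate buffer replicates 1 to 4. Every iron citrate library lay above every buffer library, and replicate 3 was the highest in each group. The fitted fold was 2.31, with a log2 fold change of 1.21 (SE 0.19, 95% interval 0.79 to 1.63, edgeR adjusted p = 0.0168). The call was lost without citrate buffer replicate 2 (log2 fold change 1.11, adjusted p = 0.0815), where 0.327% of targets were called. It was also lost without iron citrate replicate 1, 2, 3 or 4 (1.12 to 1.26, adjusted p = 0.0608 to 0.0928), where 0.313%, 0.312%, 0.345% and 0.332% of targets were called. *Aldoa* was called with DESeq2 (1.182 on the log2 scale, 2.92% of targets called) and with limma-voom (1.07, 1.98% called). It was also called without citrate buffer replicate 1 (1.14, adjusted p = 0.00214, 1.76% called).

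The sequences upstream of *Aldoa* and *Ldha* are shown for the motif matches they hold, with *Aldoa* as the called gene and *Ldha* as one that was not called. They are the 250 bases before a RefSeq start site in build GRCm38.p6, in lower case with every motif match in capitals. Of the start sites listed for each gene, 3 for *Aldoa* and 2 for *Ldha*, the site with most motif matches upstream is shown. *Aldoa* lies on the minus strand at chr7:126799255-126799504, and *Ldha* on the plus strand at chr7:46845554-46845803.
Aldoa: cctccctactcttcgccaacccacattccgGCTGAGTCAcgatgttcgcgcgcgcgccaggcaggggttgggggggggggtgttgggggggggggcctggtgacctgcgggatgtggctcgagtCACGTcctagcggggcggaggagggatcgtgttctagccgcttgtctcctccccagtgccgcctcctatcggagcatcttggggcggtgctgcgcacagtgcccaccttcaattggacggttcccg
Ldha: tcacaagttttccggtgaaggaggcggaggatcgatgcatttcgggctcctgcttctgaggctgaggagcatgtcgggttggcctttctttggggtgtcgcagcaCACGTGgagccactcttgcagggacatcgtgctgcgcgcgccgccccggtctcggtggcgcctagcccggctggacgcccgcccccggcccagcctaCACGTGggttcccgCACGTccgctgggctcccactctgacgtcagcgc
The motifs searched, on both strands, were TGACNNNGC (the core of the antioxidant response element that NRF2 binds), TGANTCA (the AP-1 site) and the cores of the hypoxia response element, ACGTG and GCGTG.

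The first capitals in *Aldoa*, GCTGAGTCA, begin 220 bases before the start and match TGACNNNGC on the opposite strand. They also contain a match to TGANTCA, so those matches overlap. The second capitals match ACGTG on the opposite strand, 126 bases before the start. In *Ldha* the capitals are matches to ACGTG, at 145, 144, 48, 47 and 34 bases before the start, some of them overlapping on opposite strands. Across all 32851 promoter windows of 300 bases, 250 before and 50 after a start, TGACNNNGC was in 12.4%, TGANTCA in 7.81%, ACGTG in 19.6% and GCGTG in 32.4%. The 9 measured genes have 15 such windows, and *Aldoa* has 3. TGACNNNGC was in 2 of the 15, 1 of *Aldoa* and 1 of *Hk1*, and TGANTCA in 1, of *Aldoa*. ACGTG was in 9 of the 15, which belong to 7 of the 9 genes, and GCGTG in 7 of the 15, which belong to 6 of the 9. The called pentose phosphate genes *Pgd*, *Tkt* and *Taldo1*, described further on, have 4 windows. Of these, TGACNNNGC was in 1, of *Pgd*, TGANTCA and ACGTG were in none, and GCGTG was in 3. A match is a string of letters and not a bound site, and which start was used in these cells was not measured.

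Glucose entry was followed through *Slc2a1*, which encodes GLUT1, the basal glucose carrier of endothelium. It was low, with 39 to 84 counts per library. Its level was 6.45, 6.91, 8.825 and 6.34 CPM after iron citrate and 7.14, 5.93, 7.12 and 5.17 CPM after citrate buffer, so the groups overlapped. The log2 fold change was 0.17 (SE 0.28, 95% interval -0.47 to 0.80, edgeR adjusted p = 0.775).

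The hexokinases *Hk1* and *Hk2* did not pass either. *Hk1*, the housekeeping form bound to mitochondria, stood at 33.3, 29.4, 30.3 and 30.1 CPM after iron citrate and 10.9, 23.8, 31.9 and 31.5 CPM after citrate buffer. Citrate buffer replicate 1 was the lowest library by far, and citrate buffer replicates 3 and 4 lay above 3 of the 4 iron citrate libraries. The log2 fold change was 0.33 (SE 0.29, 95% interval -0.32 to 0.98, edgeR adjusted p = 0.546), 0.08 without citrate buffer replicate 1 and -0.04 without citrate buffer replicates 1 and 2. *Hk2*, the inducible form of muscle and growing cells, was the lowest in counts, with 21 to 67 per library. It had 4.20, 3.46, 7.04 and 3.77 CPM after iron citrate and 4.76, 5.345, 4.90 and 2.78 CPM after citrate buffer. Its highest value came from iron citrate replicate 3 and its lowest from citrate buffer replicate 4 (log2 fold change 0.05, 95% interval -0.76 to 0.85, edgeR adjusted p = 0.954).

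At the phosphofructokinase step, the subunit genes lay on opposite sides of 0 and neither passed. *Pfkl*, the liver-type subunit, was the only measured gene with a lower mean after iron citrate, at 11.8, 9.68, 10.8 and 11.4 CPM, against 14.7, 11.6, 16.0 and 15.4 CPM after citrate buffer. Only citrate buffer replicate 2 reached into the iron citrate range. Its log2 fold change was -0.40 (SE 0.21, 95% interval -0.88 to 0.08, edgeR adjusted p = 0.342), and it stayed below 0 in all 18 alternative settings, from -0.34 to -0.52. *Pfkp*, the platelet-type subunit, had 30.2, 25.1, 27.5 and 22.3 CPM after iron citrate and 23.1, 23.8, 24.1 and 20.8 CPM after citrate buffer, with overlap (log2 fold change 0.19, 95% interval -0.15 to 0.54, edgeR adjusted p = 0.495). *Pfkfb3* encodes the enzyme that makes fructose bisphosphate activator for phosphofructokinase and is known as the glycolytic driver of sprouting endothelium. It had 76.5, 64.2, 70.5 and 67.8 CPM after iron citrate, against 53.2, 62.9, 65.1 and 57.1 CPM after citrate buffer. The groups overlapped by 1 library on each side, and the 95% interval of its log2 fold change ran from -0.04 to 0.50 (estimate 0.23, edgeR adjusted p = 0.341).

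Below aldolase, *Pkm* and *Ldha* did not pass. *Pkm*, pyruvate kinase of non-liver tissue, stood at 563, 457, 589 and 426 CPM after iron citrate and 171, 272, 401 and 434 CPM after citrate buffer. Citrate buffer replicate 4 lay above iron citrate replicate 4, and citrate buffer replicate 1 was the lowest. The log2 fold change of 0.67 (SE 0.27, 95% interval 0.07 to 1.28) had an edgeR adjusted p of 0.333. Before adjustment its p was under 0.05, as it was for 14.6% of all tested targets. The log2 fold change was 0.46 without citrate buffer replicate 1 (adjusted p = 0.237), 0.28 without citrate buffer replicates 1 and 2 (adjusted p = 0.466) and 0.30 with the share of silent gene families as a covariate (adjusted p = 0.229). *Ldha*, the lactate-forming dehydrogenase subunit, had 310.5, 334, 395 and 295 CPM after iron citrate, against 179, 289, 312 and 326 CPM after citrate buffer. The groups overlapped, and the log2 fold change of 0.27 (SE 0.20, 95% interval -0.17 to 0.71, edgeR adjusted p = 0.452) went to 0.11 when citrate buffer replicate 1 was left out and to 0.06 when replicates 1 and 2 were. Leaving out the citrate buffer libraries lowest for a gene narrows a positive gap by construction. Citrate buffer replicates 1 and 2 were the lowest of their group for *Hk1*, *Pkm* and *Ldha*, and also for *Aldoa*. The log2 fold change of *Aldoa* fell from 1.21 to 0.96 without them (SE 0.17, edgeR adjusted p = 0.00206, 1.9% of targets called). With the covariate it was 1.01 (SE 0.15, edgeR adjusted p = 0.000975, 2.24% called).

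**Figure D2:**
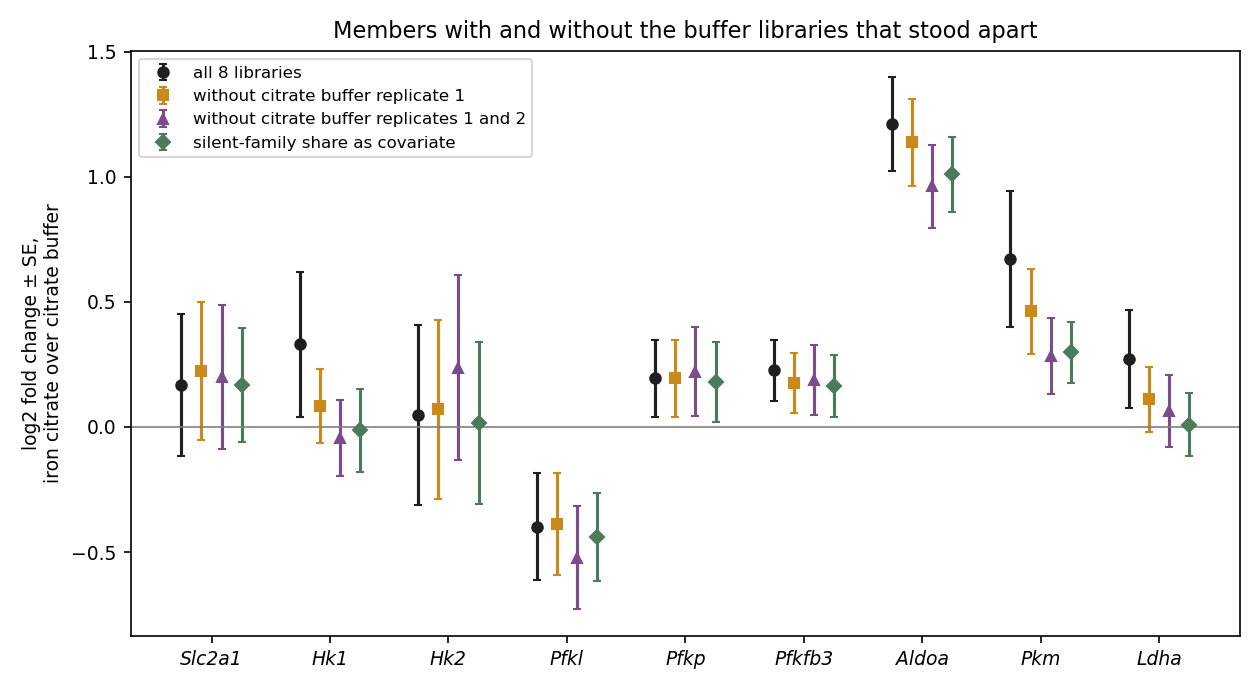
Log2 fold change of iron citrate over citrate buffer, with its SE, for the 9 measured genes under 4 fits: all 8 libraries, without citrate buffer replicate 1, without citrate buffer replicates 1 and 2, and with the share of silent gene families as a covariate. When citrate buffer replicates 1 and 2 are left out, Aldoa goes from 1.21 to 0.96, Pkm from 0.67 to 0.28 and Hk1 from 0.33 to -0.04.

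Whether *Aldoa* moved apart from each of the other genes was examined with the ratio of the pair inside each library, in which scaling factors cancel. The log2 ratio of *Aldoa* to *Ldha* was -2.63, -2.71, -2.63 and -2.60 after iron citrate and -3.19, -3.97, -3.37 and -3.73 after citrate buffer, a difference of 0.92 with no overlap. Of these ratios, 6 of 8 separated the groups, those to *Slc2a1*, *Hk2*, *Pfkl*, *Pfkp*, *Pfkfb3* and *Ldha*, with differences of 0.92 to 1.61. Each had a two-sided exact permutation p of 0.0286, the smallest the test can give with 4 libraries a group (0.0376 adjusted over all 14600 ratios). The ratio of *Aldoa* to any other tested target did so for 76.1% of targets, 75.9% with the ratio higher after iron citrate. So 6 of 8 is near the share met across the whole table and nothing particular to glycolysis. *Aldoa*, shared by every ratio, was already known to be called, so these p-values are a description and no separate evidence.

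For the other pair, *Pkm* and *Hk1*, the groups overlapped. The log2 ratio to *Pkm* was -3.49, -3.16, -3.21 and -3.14 after iron citrate and -3.12, -3.88, -3.73 and -4.14 after citrate buffer, a difference of 0.47 (exact permutation p = 0.143). That to *Hk1* differed between groups by 0.78 (exact permutation p = 0.114). Citrate buffer replicate 1 lay inside the iron citrate range for *Hk1* and just above it for *Pkm*. Without that library the groups did not overlap for any of the 8 ratios, against 84.1% of all targets. *Aldoa* was thus the only called gene of the 9, but a rise larger than that of *Pkm* or *Hk1* was not shown with all 8 libraries.

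**Figure D3:**
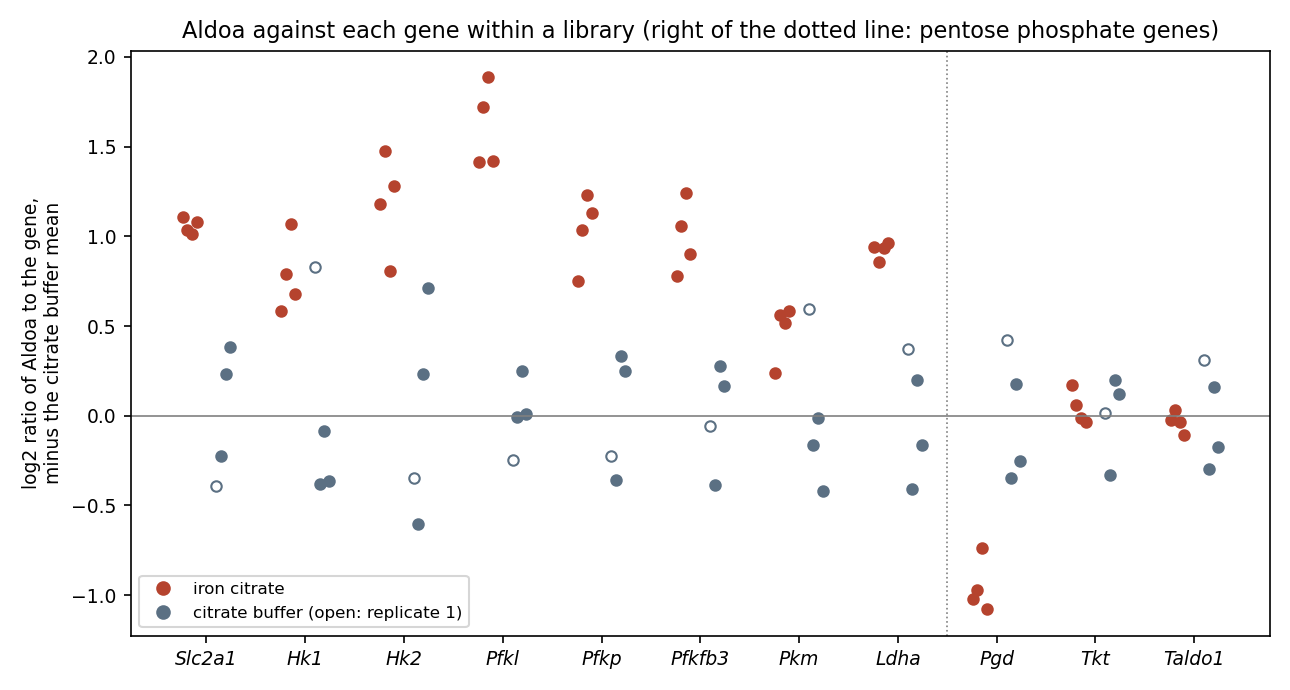
Log2 ratio of Aldoa to each other gene within a library, minus the citrate buffer mean, for the 8 other glycolytic genes and, right of the dotted line, 3 pentose phosphate genes; iron citrate points are left of citrate buffer points for each gene. Groups overlap for Hk1 and Pkm, through citrate buffer replicate 1 (open point), and for Tkt and Taldo1, whose differences are 0.05 and -0.03.

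The pentose phosphate branch, which shares sugars with the aldolase step, held further called genes. Of its 7 measured genes 3 rose, none fell and 4 did not pass, beside 0.555% of all tested targets called. *Pgd*, phosphogluconate dehydrogenase and the second NADPH-making step, had 141, 139, 148 and 142 CPM after iron citrate and 20.1, 32.2, 36.9 and 40.4 CPM after citrate buffer, a fold of 4.39 (log2 fold change 2.14, SE 0.20, edgeR adjusted p = 0.00094). *Tkt*, transketolase, which returns sugars to glycolysis, had 186, 205, 269 and 208 CPM after iron citrate and 81.0, 96.7, 110.0 and 94.2 CPM after citrate buffer, a fold of 2.27 (log2 fold change 1.184, edgeR adjusted p = 0.00652). *Taldo1*, transaldolase, had 176, 172, 225 and 179.7 CPM after iron citrate and 54.2, 77.7, 92.8 and 95.4 CPM after citrate buffer, a fold of 2.35 (edgeR adjusted p = 0.0168). The groups of all 3, taken because they were called, were apart, beside 6.36% of all tested targets without overlap and higher after iron citrate. Iron citrate replicate 3 was the highest for each, as for *Aldoa*. It was also the highest for *Slc2a1*, *Hk2*, *Pkm*, *Ldha* and the glycolytic isomerase gene *Gpi1*, which were not called. *Taldo1* lost its call when citrate buffer replicate 2 or 1 of the iron citrate libraries was left out (adjusted p = 0.0669 to 0.106), while *Pgd* and *Tkt* kept theirs in all 18 alternative settings.

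The size of the *Aldoa* rise was close to that of *Tkt* and *Taldo1*. The log2 ratio of *Aldoa* to *Tkt* averaged -2.02 ± 0.09 after iron citrate and -2.06 ± 0.23 after citrate buffer (SD, n = 4 each; exact permutation p = 0.8286). That to *Taldo1* averaged -1.82 ± 0.06 after iron citrate and -1.78 ± 0.28 after citrate buffer, with the same exact permutation p. A p of this size does not show that the changes were equal. *G6pdx*, the entry enzyme of the branch, which lies outside the naming rule and is given because it opens the pathway, had 43.0 ± 3.06 CPM after iron citrate and 41.1 ± 8.66 CPM after citrate buffer (log2 fold change 0.06, edgeR adjusted p = 0.853).

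**Figure D4:**
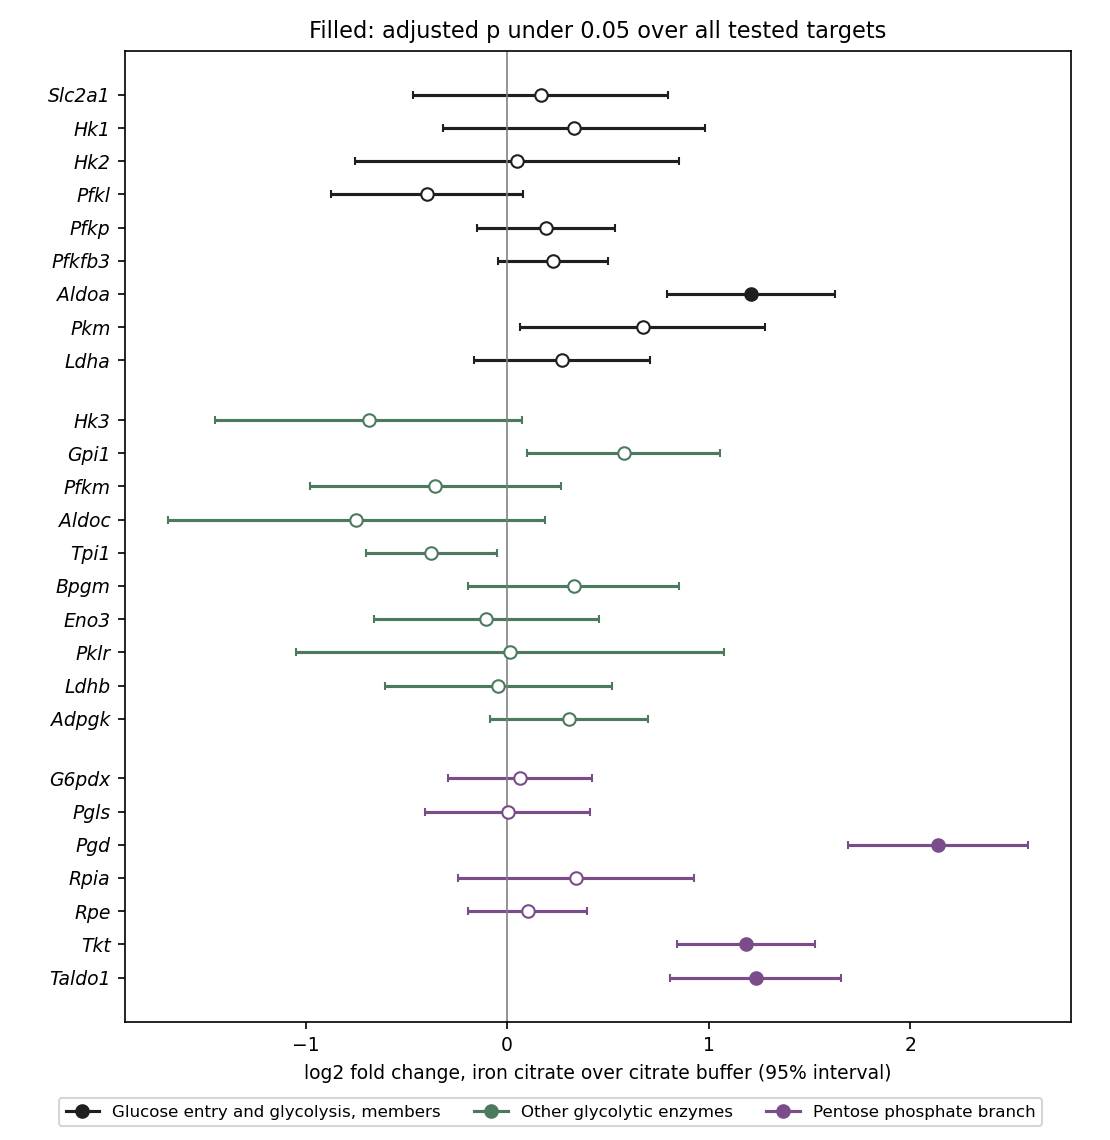
Log2 fold change of iron citrate over citrate buffer with its 95% interval for the 9 measured glycolytic genes, 10 of the 11 other tested glycolytic enzymes and 7 pentose phosphate genes. Genes are in rough pathway order within each group, except Adpgk, drawn last of the other enzymes. Filled points have an edgeR adjusted p under 0.05 over all tested targets. The 4 filled points are Aldoa (1.21), Pgd (2.14), Tkt (1.184) and Taldo1 (1.23).

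No other glycolytic enzyme was called, beside 0.555% of all tested targets, so no call in so short a list is near that share. Of 18 listed, 15 had a target and 11 passed the filter, 5 of them above 0 and 6 below on the log2 fold change scale (median -0.04). *Gpi1*, the isomerase between hexokinase and phosphofructokinase, had 264, 226, 315 and 227 CPM after iron citrate and 119, 146, 227 and 201 CPM after citrate buffer (log2 fold change 0.58, SE 0.21, edgeR adjusted p = 0.333). Only citrate buffer replicate 3 reached the iron citrate range, by less than 1 CPM. The log2 fold change was 0.27 when citrate buffer replicates 1 and 2 were left out and 0.28 with the silent-family covariate. *Adpgk*, an ADP-dependent glucokinase, stood at 78.4 ± 7.75 CPM after iron citrate and 63.4 ± 13.9 CPM after citrate buffer (edgeR adjusted p = 0.362).

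*Tpi1* and *Aldoc* were named after their values were seen. *Tpi1*, triose phosphate isomerase, had 46.7, 44.6, 44.9 and 43.3 CPM after iron citrate and 72.0, 50.6, 60.6 and 49.7 CPM after citrate buffer. Its groups did not overlap, as for 8.64% of all tested targets, and it lay on the side opposite to *Aldoa* (log2 fold change -0.38, SE 0.15, edgeR adjusted p = 0.333). *Aldoc*, the aldolase of brain, had 6.89 ± 1.31 CPM after iron citrate and 11.6 ± 7.44 CPM after citrate buffer, with the highest value, 22.5 CPM, in citrate buffer replicate 1 (edgeR adjusted p = 0.351).

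Among regulators of glycolytic flux, 8 of 10 listed genes were tested and none was called, beside 0.555% of all tested targets. *Txnip*, an inhibitor of glucose uptake and of thioredoxin, had 1309 ± 153 CPM after iron citrate and 1470 ± 243 CPM after citrate buffer (edgeR adjusted p = 0.592). *Pdk4*, a kinase that shuts pyruvate dehydrogenase, had 199, 209, 180.3 and 131 CPM after iron citrate and 43.0, 112, 114 and 143 CPM after citrate buffer (log2 fold change 0.80, edgeR adjusted p = 0.333), with citrate buffer replicate 1 again the lowest. Its log2 fold change was 0.48 when citrate buffer replicates 1 and 2 were left out and 0.42 with the covariate. *Pdk2*, its paralogue, was called lower only in the fit without citrate buffer replicate 1 (log2 fold change -0.53, edgeR adjusted p = 0.0409, where 1.76% of targets were called), and was named after its values were seen.

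Glucose and lactate transport (13 tested of 16 listed) and gluconeogenesis (6 tested of 8) had no called gene, beside 0.555% of all tested targets called. *Bsg*, basigin, the partner of lactate carriers, had 668 ± 80.3 CPM after iron citrate and 735 ± 65.4 CPM after citrate buffer. *Mpc2*, a subunit of the mitochondrial pyruvate carrier, had 31.2 ± 2.17 CPM after iron citrate and 35.2 ± 5.77 CPM after citrate buffer. *G6pc3*, a glucose phosphatase, had 26.5 ± 1.96 CPM after iron citrate and 25.3 ± 5.79 CPM after citrate buffer, and *Slc37a4*, which carries glucose phosphate into the endoplasmic reticulum, had 23.4 ± 3.48 CPM after iron citrate and 24.5 ± 6.0 CPM after citrate buffer. The edgeR adjusted p-values of these 4 genes were 0.61, 0.546, 0.862 and 0.898.

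The genes whose levels ran most like *Aldoa* over the 8 libraries were taken from 11677 other targets with a mean of at least 5 CPM, by Pearson's r of log2 CPM. They were *Mgat5* (0.989), *Fam13b* (0.987), *Txn1* (0.986), *Zwint* (0.981) and *Cep192* (0.981). *Txn1*, cytosolic thioredoxin, had 728, 800, 998 and 816 CPM after iron citrate and 380.5, 399, 492 and 463 CPM after citrate buffer (log2 fold change 0.95, edgeR adjusted p = 0.0219), and its highest library in each group was replicate 3, as for *Aldoa*. *Zwint*, a kinetochore protein, was also called (log2 fold change 1.07, adjusted p = 0.00929), and the other 3 were not. *Tkt*, *Taldo1* and *Pgd* were at ranks 13, 16 and 33 of this order, with r of 0.971, 0.965 and 0.956. The nearest glycolytic genes were *Pkm* at rank 568 (0.825) and *Pfkfb3* at rank 936 (0.769), and *Pfkl* was at -0.628. These r include the difference between the groups and are given as a description over libraries that share it.

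Markers of other liver cells were present at summed levels that overlapped between the groups for all 6 lists other than sinusoidal endothelium. Summed over 8 measured of 8 listed Kupffer cell and macrophage markers, libraries had 608 to 1044 CPM after iron citrate and 691 to 999.6 CPM after citrate buffer. Most of that sum was *Lyz2*, a lysozyme also made by other myeloid cells, at 499 ± 69.3 CPM after iron citrate and 655 ± 214 CPM after citrate buffer. The other 7 markers each had a log2 fold change above 0 and none was called, with *Vsig4* at 139 ± 61.5 CPM after iron citrate and 84.0 ± 41.6 CPM after citrate buffer (log2 fold change 0.73, SE 0.46, edgeR adjusted p = 0.398). Without *Lyz2* the sums were 219, 339, 444 and 151.5 CPM after iron citrate and 47.1, 192, 261 and 245 CPM after citrate buffer, a split made after the values were seen. The groups overlapped, citrate buffer replicate 1 was the lowest, and replicate 3 was the highest in each group, as for *Aldoa*. Hepatocyte markers (9 of 10) summed to 396 to 779 CPM after iron citrate and 449 to 899 CPM after citrate buffer. Neutrophil markers (8 of 8) summed to 179 to 231 CPM after iron citrate and 108.5 to 386 CPM after citrate buffer, so the groups overlapped for both lists. T, NK and B cell markers (5 of 8) summed to 671 to 799 CPM after iron citrate and 560 to 1279 CPM after citrate buffer. Erythroid markers (5 of 8, the haemoglobins not analysed here) summed to 11.4 to 14.9 CPM after iron citrate and 11.5 to 30.4 CPM after citrate buffer, and stellate cell markers (8 of 8) to 431.5 to 661 CPM after iron citrate and 267 to 682 CPM after citrate buffer. No marker was at 0 in every library, and none was called, beside 0.555% of all tested targets. Citrate buffer replicate 1 had the highest sum of the 8 libraries for neutrophil, lymphoid and erythroid markers and the lowest for stellate and sinusoidal endothelial ones. The part of these cells in the *Aldoa* value was not tested.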

How the data were processed

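The authors deposited whole-number read counts per RefSeq target, 1 file per library, from Ion AmpliSeq libraries. HTSeq 0.6.0 and DESeq2 1.18.1 are named, per the submitters' processing notes. Which aligner, build and read filters were used is not given in the sources used here. HTSeq's summary lines (2.15% to 4.60% of a file) were left out. Reference tables gave no symbol for 1368 of 23930 accessions. The design text speaks of 5 samples per group, and the others were not analysed here.

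Groups were compared with edgeR 4.0.16 (R 4.3.3): filterByExpr, TMM factors, robust quasi-likelihood F-test, Benjamini-Hochberg over 14601 targets, called under 0.05. SEs and 95% intervals come from the F statistic and its degrees of freedom. CPM use TMM-scaled library sizes. Ratios use log2 CPM with a prior count of 2. In a simulation of the comparison with 14491 genes, edgeR recovered 24 of 99 genes set to a 2-fold change and 66 of 97 set to a 4-fold change. It called 3 of 14295 that were left alone. Counts were drawn independently for each gene, with no library set apart as citrate buffer replicate 1 was, so these rates may not hold for the real libraries. Pairs of libraries differed by more than sampling noise (chi-square per degree of freedom at least 8.34). Each library is labelled as 1 mouse, with nothing more on independence, and p-values reflect only the spread between these libraries.

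The genes and lists were chosen with earlier results of these data known. Named were the 9 measured genes, each pathway list's called genes and its 2 most abundant, the 2 most abundant of each marker list where used, and the 5 genes most like *Aldoa*. Others are said to be so. Of these, 1 gene is not reported here. Alternatives were other scaling, DESeq2 1.42.0, limma-voom (limma 3.58.1), other filters, a replicate block, libraries left out and a silent-family covariate. The covariate was the log2 of the silent-family share. That share reached higher in citrate buffer libraries, so the covariate can also take up part of the difference between the groups. Promoter windows are RefSeq's, GRCm38.p6. Plots used Python 3.11.15 and matplotlib 3.10.9.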

Additional observations from a re-analysis of the deposited data

Results flagged for a closer look

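In 3 of 44 groups of 4 libraries, over 22 named genes, 1 library lay apart from the other 3 by more than Dixon's 95% critical value, a gap set against the group's range. Chance gives about 5% of groups. *Aldoa* stood at 63.7 CPM in iron citrate replicate 3, above 48.3 to 50.9 CPM in the other iron citrate libraries. *Taldo1* stood at 225 CPM in the same library, above 172 to 179.7 CPM. *G6pc3* stood at 23.6 CPM in iron citrate replicate 2, below 27.1 to 27.7 CPM in the others.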

How the results depend on the processing

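Calls over all targets numbered 81 (77 higher, 4 lower). They numbered 352 with DESeq2, 289 with limma-voom, 327 when the silent-family share was a covariate, 281 when citrate buffer replicates 1 and 2 were left out, and 46 to 259 when 1 library was left out. *Aldoa* was called in 13 of 18 alternatives. Leaving out 1 library gave it log2 fold changes of 1.11 to 1.36, with 0 or 1 called glycolytic gene and 2 to 4 called pathway genes against 3. No other measured glycolytic gene was called in any alternative. Of the log2 fold changes that changed sign, *Hk2* had -0.091 with upper-quartile factors, -0.074 with library totals, -0.010 with limma-voom and -0.22 to 0.16 with 1 library left out. *Hk1* had -0.044 when citrate buffer replicates 1 and 2 were left out and -0.014 with the covariate. *G6pc3* had -0.035 with upper-quartile factors, -0.018 with library totals, -0.038 with limma-voom, -0.030 when citrate buffer replicates 1 and 2 were left out, -0.098 with the covariate and -0.078 to 0.16 with 1 library left out. *Slc37a4* had -0.14 to 0.13 with 1 library left out. The cause was not tested. Upper-quartile factors and library totals moved the median of all targets to -0.12 and -0.11. *Hk2* could not be tested at a mean CPM of at least 5. The 6 of 8 separating ratios were the same number with a prior count of 0.5, and 6 to 8 with 1 library left out. Replicate numbers are not stated to pair the libraries. Deviations of same-numbered libraries correlated at -0.32 to 0.61, and 1 of 4 citrate buffer libraries correlated best with its own number. So few pairs cannot exclude pairing. With the replicate block 43 targets were called, and *Aldoa* had a log2 fold change of 1.23 (adjusted p = 0.02865). Depth limits *Slc2a1* and *Hk2* most, at 39 to 84 and 21 to 67 counts per library.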

Other observations

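Targets of the hypoxia-inducible factors outside glycolysis were measured beside the glycolytic genes, since both groups are known to answer to those factors. Of 12 listed, 11 were tested and none was called, beside 0.555% of all tested targets. Before adjustment the edgeR p was under 0.05 for 3 of the 11, beside 14.6% of all tested targets. The median log2 fold change was 0.12 (7 above 0 and 4 below). *Ndrg1*, a stress-responsive gene, had 426, 365, 473 and 369 CPM after iron citrate and 88.4, 194, 257 and 366 CPM after citrate buffer (log2 fold change 0.85, edgeR adjusted p = 0.333), with citrate buffer replicate 1 the lowest. Its log2 fold change was 0.39 when citrate buffer replicates 1 and 2 were left out and 0.42 with the silent-family covariate. *P4ha1*, a collagen prolyl hydroxylase subunit, had 131 ± 22.4 CPM after iron citrate and 114 ± 18.8 CPM after citrate buffer (edgeR adjusted p = 0.53). *Egln3*, an iron-dependent prolyl hydroxylase of these factors, was named after its values were seen, since its groups did not overlap. Such separation was met in 8.64% of all tested targets. *Egln3* had 10.2, 17.3, 13.1 and 19.0 CPM after iron citrate and 5.90, 8.10, 7.21 and 4.64 CPM after citrate buffer (log2 fold change 1.20, SE 0.30, edgeR adjusted p = 0.175).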
